A study of Homo sapiens with 9 samples.

Results

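PTP4A1, PTP4A2 and PTP4A3 are the 3 PTP4A phosphatases of the human genome, also called phosphatases of regenerating liver (PRL-1, PRL-2 and PRL-3). They were chosen as a gene family, and because PTP4A1 was one of the few transcripts with more ribosome footprints after treatment with a stalling compound. Of the 3, PTP4A1 and PTP4A2 had a value for both compounds, among 9221 genes with a value for at least one, and PTP4A3 had a value for neither and was not analysed further. With PF8503 the footprint signal of PTP4A1 was 1.56-fold that of vehicle, and with PF846 it was 1.32-fold. The signal of PTP4A2 was 0.923-fold that of vehicle with PF8503 and 1.02-fold with PF846.

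The study used ribosome profiling, in which the mRNA fragments protected by ribosomes are sequenced, so that the number of fragments on a coding sequence follows the number of ribosomes on it. Huh-7, a cell line from a human hepatocellular carcinoma, was incubated for 1 hr with 1.5 μM PF8503 (PF-06378503), with 1.5 μM PF846 (PF-06446846) or with 0.5% DMSO as vehicle, and the cells were lysed in buffer containing cycloheximide. Each of the 3 conditions had 3 biological replicates, which gives 9 libraries, and the same vehicle libraries served both compounds. PF846 and PF8503 bind the ribosome and stall it on a small set of nascent chains. The question behind both comparisons was which mRNAs differ between compound and vehicle in the footprints on the counted part of their coding sequence. Where a stall position was called, only footprints 3′ of it were counted.

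Every value given here is the authors' mean over the libraries of a condition, in normalized read counts. No value of a single library was used, and no SD, interval or test stands behind the differences between conditions. Depth per library is unknown. mRNA was not measured alongside, and more mRNA and more ribosomes per mRNA cannot be told apart. All 15 hepatocyte markers examined had a value and held 5.21% of the total vehicle signal. Of 12 markers of blood, endothelial, stromal and other epithelial cells, 3 had a value in the PF8503 comparison (LYZ, CD68 and PECAM1), with 0.0839% of the total. With PF8503 these 3 were all above vehicle, with a median log2 ratio of 0.18, and 6 of the 15 hepatocyte markers were above it, with a median of -0.070. With PF846, 3 of 4 other-cell markers were above vehicle, with a median of 0.059. The highest was ACTA2 at 0.25, with a low mean of 56.0, and LYZ was below vehicle at -0.17. The summed signal of the 4 was 8133 with vehicle and 7414 with PF846. Of the 15 hepatocyte markers, 4 were above vehicle with PF846, with a median of -0.030. The part of these markers in the values of the PTP4A genes was not tested.

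PTP4A proteins are small protein tyrosine phosphatases that consist of little more than a catalytic domain. They carry the signature of this enzyme class, a cysteine that takes up the phosphate and an arginine that holds it, and they end in a CAAX motif, at which a farnesyl group is attached that brings them to membranes. PTP4A1 was first described as an immediate-early gene of the regenerating liver. All members bind the CNNM magnesium transporters, and all have been studied in tumour growth and metastasis.

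PTP4A1 (ENSG00000112245) lies on chromosome 6 of GRCh38, at 63572480 to 63583588 on the plus strand. Its coding sequence runs from 63576881 to 63580174, in exons 2 to 6 of 6, with 174 codons including the stop. PTP4A2 (ENSG00000184007) lies on chromosome 1, at 31906421 to 31938368 on the minus strand. Its coding sequence of 168 codons runs from 31908852 to 31919065, also in exons 2 to 6 of 6. PTP4A3 (ENSG00000184489) has 174 codons, with a GC content of 61.5%, against 40.8% in PTP4A1 and 43.3% in PTP4A2.

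How far the transcripts resemble each other decides whether a short fragment can be given to the right gene, and 3 stretches of their coding sequence are shown for this reason. At the start, PTP4A1 has 3 codons more than PTP4A2. In the first 30 codons of each, printed 5′ to 3′ from chr6:63576881-63576970 (plus strand) and chr1:31918976-31919065 (minus strand), capitals mark bases that differ from the other transcript or have no counterpart in it.
PTP4A1: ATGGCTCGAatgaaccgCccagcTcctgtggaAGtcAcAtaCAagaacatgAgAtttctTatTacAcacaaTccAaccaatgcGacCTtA
PTP4A2: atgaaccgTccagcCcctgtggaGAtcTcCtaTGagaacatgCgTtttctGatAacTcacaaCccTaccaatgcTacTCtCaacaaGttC
In this stretch 28 bases of PTP4A1 and 21 of PTP4A2 are in capitals.

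The second stretch holds the catalytic signature, whose codons, from the cysteine to the arginine, are in capitals. It spans an exon junction in both genes, between 63578994 and 63579272 on chromosome 6 and between 31910097 and 31911730 on chromosome 1. In PTP4A1 the capitals are codons 104 to 110, and in PTP4A2 codons 101 to 107.
PTP4A1: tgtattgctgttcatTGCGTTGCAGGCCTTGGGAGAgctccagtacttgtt
PTP4A2: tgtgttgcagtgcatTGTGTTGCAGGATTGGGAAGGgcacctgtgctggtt
The third is the 3′ end of the coding sequence, with the 4 codons of the CAAX motif in capitals before the stop codon, at chr6:63580130-63580174 (plus strand) and chr1:31908852-31908896 (minus strand).
PTP4A1: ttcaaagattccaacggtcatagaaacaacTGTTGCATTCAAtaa
PTP4A2: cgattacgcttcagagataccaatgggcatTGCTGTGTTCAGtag

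Over the aligned coding sequences, PTP4A1 and PTP4A2 shared 386 of 504 bases (76.6%) but only 65 of 168 codons (38.7%). On translation, 150 of the 168 aligned residues (89.3%) were the same. The proteins are thus closer than the mRNAs. PTP4A3 shared 69.0% of its bases with PTP4A1 and 68.3% with PTP4A2. The longest run of identical bases in PTP4A1 and PTP4A2 was 24 bases long, in codons 34 to 42 of PTP4A1 and 31 to 39 of PTP4A2.
Shared run: agaggaacttaagaagtatggagt

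This run is shorter than a ribosome footprint. Windows of 26, 28, 30 and 34 bases were laid over every position of the counted codons, which run from codon 10 to codon 164 in PTP4A1 and PTP4A3 and to codon 158 in PTP4A2. At each of these lengths, 100% of the windows of each member were absent from the other 2 members and from other genes among 19701 canonical coding transcripts, leaving aside 2 coding genes annotated over the same exons, ENSG00000285976 at PTP4A1 and ENSG00000288678 at PTP4A2. Whether the authors' reference held those overlapping genes was not tested. Processed pseudogenes were closer. At 28 bases, 114 of 465 windows of PTP4A1 (24.5%) and 237 of 447 windows of PTP4A2 (53.0%) also occurred in one of 9 annotated PTP4A pseudogene transcripts, and no window of PTP4A3 did. The authors aligned to coding transcripts, in which a fragment of such a pseudogene would be counted with its parent gene. Whether any pseudogene was occupied by ribosomes was not tested.

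**Figure D1:**
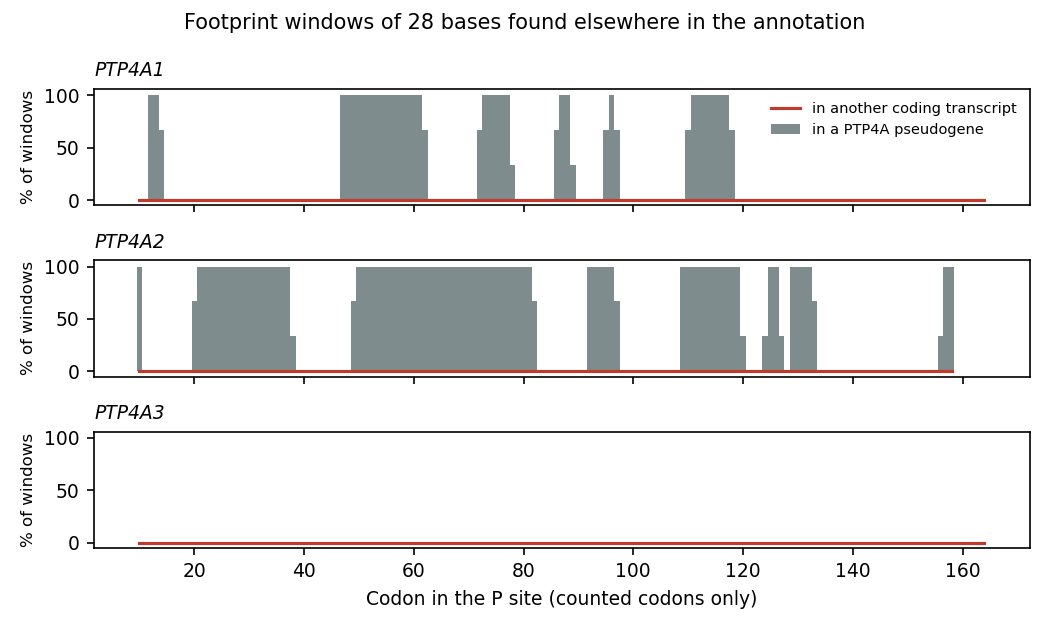
Share of 28-base footprint windows (y axis, percent) that occur elsewhere, by codon in the ribosomal P site (x axis), for the counted codons of PTP4A1, PTP4A2 and PTP4A3. Grey bars are windows that also occur in a PTP4A pseudogene, and the red line, at 0 throughout, is windows that also occur in another coding transcript, with the genes over the same exons left aside. PTP4A1 has 24.5% of its windows and PTP4A2 53.0% in a pseudogene, in several separate blocks, and PTP4A3 has none.

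GENCODE 44 also annotates a small open reading frame in the mRNA of each gene, upstream of the counted codons, as a coding gene of its own. These are the overlapping genes left aside in the search of windows. The frame has 45 codons with the stop at the PTP4A1 locus (ENSG00000285976) and 40 at the PTP4A2 locus (ENSG00000288678). Neither has a value used here. Footprints on them lie outside the codons counted for PTP4A1 and PTP4A2.

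PTP4A1, the member with the increase, had a mean of 523 normalized counts with vehicle and 818 with PF8503. The difference was 56.5% of the vehicle mean, a log2 ratio of 0.65. In the PF846 comparison, which the authors scaled separately, its mean was 479 with vehicle and 630 with PF846, a difference of 31.7% and a log2 ratio of 0.40. Both compounds thus had a PTP4A1 mean above that of vehicle, with the higher one for PF8503.

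PTP4A2 had a mean of 312 with vehicle and 288 with PF8503, so that its signal fell by 7.73% (log2 ratio -0.12, with no test). Its mean was 286 with vehicle and 291 with PF846, a difference of 1.82% (log2 ratio 0.026). Both differences were small beside those of PTP4A1, and their directions were opposite.

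Expressed in ppm of the total signal of a condition, PTP4A1 stood at 49.7 ppm with vehicle, 78.0 ppm with PF8503 and 65.5 ppm with PF846. On the same scale PTP4A2 stood at 29.7 ppm with vehicle, 27.5 ppm with PF8503 and 30.2 ppm with PF846. PTP4A1 and PTP4A2 together held 79.4 ppm with vehicle, 105 ppm with PF8503 and 95.8 ppm with PF846. With PF8503 the difference in PTP4A1 exceeded that of the sum, since PTP4A2 was lower than with vehicle, and with PF846 both members were above vehicle.

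**Figure D2:**
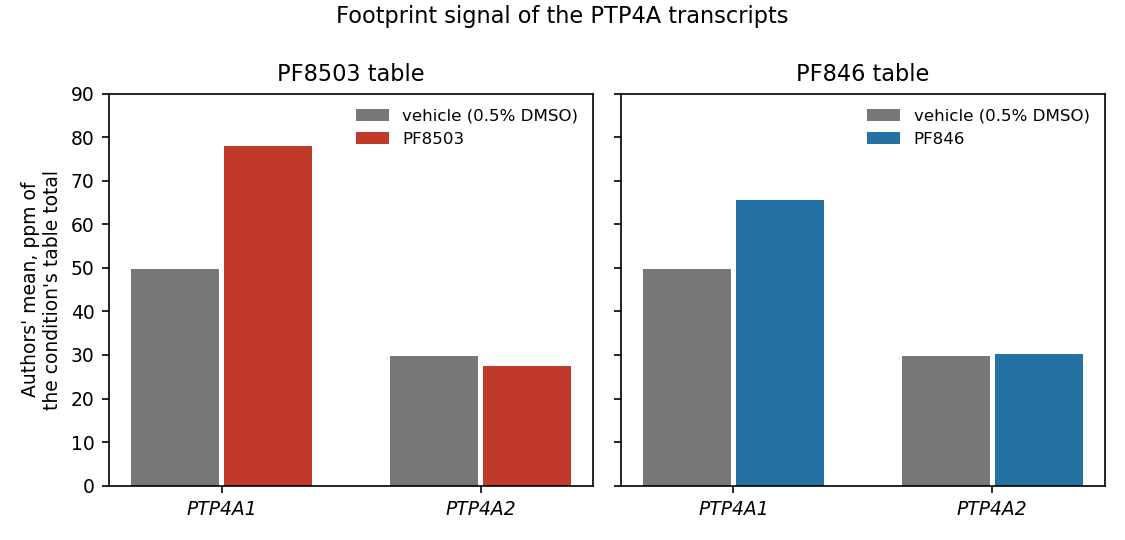
Footprint signal of PTP4A1 and PTP4A2 (y axis, authors' mean in ppm of the condition's total in the comparison) with vehicle (grey) and with PF8503 (left panel, red) or PF846 (right panel, blue). Bars are means over 3 libraries with no error bar, since no single library was used. PTP4A1 stood at 49.7 with vehicle, 78.0 with PF8503 and 65.5 with PF846, while PTP4A2 stayed between 27.5 and 30.2.

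Levels of different genes were compared per counted codon. With vehicle, in the PF8503 comparison, PTP4A1 carried 3.37 normalized counts per codon and PTP4A2 carried 2.10, against a median of 0.858 over 8653 transcripts with a known coding length. The level of PTP4A1 was higher than that of 81.3% of these transcripts, and the level of PTP4A2 higher than that of 72.4%. Both phosphatase mRNAs thus carried more footprints per codon than most mRNAs of Huh-7 cells without compound. With PF8503 the levels per codon were 5.28 for PTP4A1 and 1.93 for PTP4A2. In the PF846 comparison, PTP4A1 went from 3.09 with vehicle to 4.07 with PF846, and PTP4A2 from 1.92 to 1.95. These levels take the counted stretch to be codon 10 to the tenth codon before the end, as for transcripts without a stall position.

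The ratio of PTP4A1 to PTP4A2 within a condition does not depend on a scaling common to all libraries of that condition. The size factors of its single libraries still enter. Per codon the ratio was 1.61 with vehicle, 2.73 with PF8503 and 2.08 with PF846. On the log2 scale, the difference between the members' compound-to-vehicle ratios was 0.76 with PF8503 and 0.37 with PF846. The order of the members, PTP4A1 above PTP4A2, was the same in all 3 conditions.

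A log2 ratio of at least 0.5 in either direction was used as the fold for counting transcripts. With PF8503, 22 of 9157 transcripts (0.24%) were higher than vehicle by this fold and 99 (1.08%) were lower. With PF846, 7 of 8839 (0.0792%) were higher and 35 (0.396%) lower. Of the 2 members with values, 1 (PTP4A1) was past the fold with PF8503 and 0 were past it with PF846. PTP4A1 was selected on these ratios, and nothing is read from the count.

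Among all transcripts ranked from the highest ratio down, PTP4A1 was number 7 of 9157 with PF8503 and number 27 of 8839 with PF846. Because PTP4A1 was selected on these ratios, its ranks here and below are descriptions only. PTP4A2 was number 7845 with PF8503 and number 3342 with PF846. The transcripts above PTP4A1 with PF8503 were HIST1H4L (log2 ratio 1.53), a histone H4 gene, PGAP3 (0.74), which remodels glycosylphosphatidylinositol anchors, DPM3 (0.73), a subunit of dolichol-phosphate mannose synthase, PXMP2 (0.70), a peroxisomal membrane protein, MAFK (0.69), a small Maf transcription factor, and RPS9 (0.68), a ribosomal protein. Most of these were weakly covered. PGAP3, PXMP2, MAFK and RPS9 had means of 93.4, 72.4, 53.1 and 84.0 over both conditions, against 671 for PTP4A1.

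Ratios of weakly covered transcripts scatter more, and the rank was therefore also taken where coverage was higher. Of the 22 transcripts higher with PF8503, 16 had a mean under 100. Among the 8095 transcripts with a mean of at least 100, PTP4A1 was number 3 with PF8503, after HIST1H4L and DPM3. With PF846 it was number 13 of 7918. DPM3 went from 316 with vehicle to 524 with PF8503, and HIST1H4L from 77.0 to 223.

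The comparison was narrowed further to transcripts whose mean lay within 1.5 times that of PTP4A1. With PF8503, PTP4A1 had the highest ratio of 2047 such transcripts, and the next was KISS1R, the kisspeptin receptor, at 0.40. The central 95% of these transcripts lay between -0.24 and 0.22. With PF846, PTP4A1 was number 3 of 2135 transcripts of like mean, among which the highest was the mitochondrially encoded MT-ATP6, a subunit of ATP synthase, at 0.57, and the central 95% lay between -0.16 and 0.15. PTP4A2 lay inside the central range of transcripts of its own mean with both compounds, which was -0.29 to 0.25 with PF8503 and -0.20 to 0.18 with PF846. These ranges describe the spread over transcripts, not over libraries. The window of like mean was chosen after seeing the data. Since PTP4A1 was selected for its increase, nothing is read from its rank or from its place outside the central range.

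**Figure D3:**
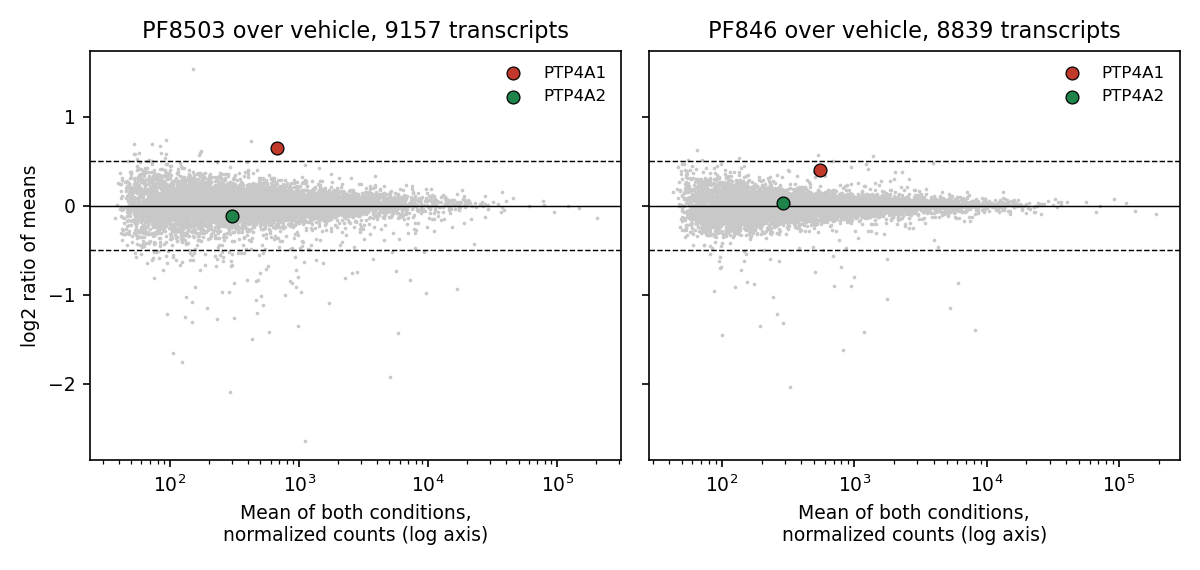
Log2 ratio of compound over vehicle (y axis) against the mean of both conditions in normalized counts (x axis, log scale), for PF8503 (left, 9157 transcripts) and PF846 (right, 8839 transcripts). Grey points are transcripts, dashed lines mark the fold of 0.5, and PTP4A1 (red) and PTP4A2 (green) are marked. PTP4A1 stands above the other transcripts of similar mean with PF8503 (0.65), less far out with PF846 (0.40), and PTP4A2 lies within the main band in both panels (-0.12 and 0.026). As PTP4A1 was selected for its increase, nothing is read from its position.

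The neighbours of PTP4A1 in the ranking by ratio differed between the compounds. At a mean of at least 100, the transcripts just below it with PF8503 were SAC3D1 (0.61), a SAC3-domain protein linked to the centrosome, and RNASEH2C (0.59), a subunit of ribonuclease H2. With PF846, MT-ND1 (0.40) and PAN3 (0.40) stood just above PTP4A1, and MT-ND2 (0.39) and AHNAK (0.38) just below. MT-ND1 and MT-ND2 are mitochondrially encoded subunits of respiratory complex I, PAN3 is part of a deadenylase that shortens poly(A) tails, and AHNAK is a very large scaffold protein. PTP4A1 differed from PAN3, MT-ND1 and MT-ND2 by less than 0.01 on this scale.

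PF8503 and PF846 were given at the same concentration for the same time, and 1 pair of compounds could be compared. The vehicle means in the PF8503 and PF846 comparisons differed by a factor of 1.09255 for PTP4A1 and for PTP4A2. The constant factor over all transcripts was 1.09251, and 8641 of 8775 transcripts (98.5%) kept to it within 0.002 on the log2 scale. The same codons were thus counted for each member with both compounds, which lets the vehicle mean drop out. PTP4A1 was 1.19-fold higher with PF8503 than with PF846 (log2 0.25), and PTP4A2 was 0.906-fold (log2 -0.14). The central 95% of the 8641 transcripts lay between -0.25 and 0.26, and 2.85% of them had a higher ratio than PTP4A1. Both members lay within that range. Among the 7797 transcripts with a mean of at least 100, the central 95% was narrower, from -0.24 to 0.24, and PTP4A1 lay just above it, with 2.14% of these transcripts higher, while PTP4A2 lay within it. No replicate error or interval is available to say whether either differed between the compounds.

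Since the same vehicle libraries enter both comparisons, the ratios with PF8503 and PF846 are not independent, and the values of a transcript are given side by side without a test. Of 8775 transcripts with a value for both compounds, 2 were at or above the ratio of PTP4A1 with each, PTP4A1 itself included. Of the 7890 with a mean of at least 100 in both, only PTP4A1 was. The limit is PTP4A1's own pair of ratios, on which it was selected, and nothing is read from these counts. Among the 7890, a ratio of at least 0.3 with both was found in 9, namely PTP4A1, SAC3D1, USMG5, PAN3, ZNF398, CLK1, RAB11FIP5, KLHL11 and MAN2B2. The ratios of USMG5, a small subunit associated with the mitochondrial ATP synthase, were 0.43 with PF8503 and 0.55 with PF846. In this it had the opposite order of compounds to PTP4A1.

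The transcripts with the pattern most like that of PTP4A1 were those with the smallest distance over the pair of log2 ratios, out of 7889. The nearest was SAC3D1, at 0.61 with PF8503 and 0.45 with PF846 and a distance of 0.0635. The others were RNF26 (0.57 and 0.28), a ubiquitin ligase of the endoplasmic reticulum, RNASEH2C (0.59 and 0.19), PAN3 (0.41 and 0.40) and ROMO1 (0.45 and 0.25), a small protein of the mitochondrial inner membrane. SAC3D1 was covered less, with 136 normalized counts with vehicle and 208 with PF8503, than PTP4A1 with 523 and 818.

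**Figure D4:**
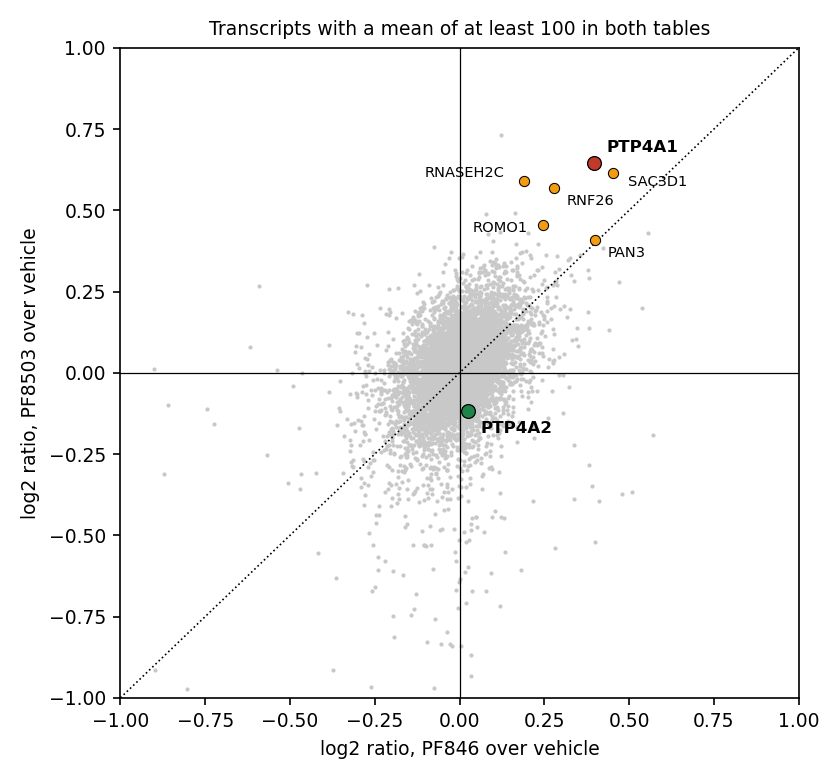
Log2 ratio with PF8503 (y axis) against the log2 ratio with PF846 (x axis), both over vehicle, for 7862 of the 7890 transcripts with a mean of at least 100 in both comparisons (28 lie outside the axes). Each point is a transcript, the dotted line marks equal ratios, and orange points are the 5 transcripts nearest to PTP4A1, which itself lies at 0.40 and 0.65, above the line and apart from the main cloud. PTP4A2 lies in the cloud at 0.026 and -0.12. Both axes share the vehicle libraries, and PTP4A1 was selected on these ratios.

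PTP4A1 has a short coding sequence, and short transcripts were looked at separately. At a mean of at least 100, 3 of 897 transcripts of at most 200 codons (0.334%) were higher past the fold with PF8503, against 2 of 6767 longer ones (0.0296%). PTP4A1, which was chosen for its increase, is itself 1 of the 3, with DPM3 and RNASEH2C, and HIST1H4L, also past the fold, had no coding length and is in neither count. With PF846, 0 of 882 short transcripts and 1 of 6613 longer ones (0.0151%) were higher past the fold. At this mean 4 transcripts in all were higher past the fold with PF846. Those without a coding length, among them USMG5 (0.55), are in neither count, so that the counts with PF846 are incomplete. With PF8503 the medians were 0.012 for the short and 0.011 for the longer transcripts. The central 95% was wider for the short transcripts, from -0.39 to 0.28, than for the longer ones, from -0.29 to 0.25. Among transcripts with a known length of at most 200 codons, at any mean, PTP4A1 was number 5 of 1003 with PF8503. With PF846 it was number 2 of 980. PTP4A2, of nearly the same length, was number 841 with PF8503 and number 339 with PF846.

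Genes related to the PTP4A phosphatases by partner, processing or enzyme class were described as lists, beside the median over all transcripts of 0.013 with PF8503 and 0.00086 with PF846. None of the genes in these lists was past the fold with either compound, in either direction. Among all transcripts, 0.24% were higher and 1.08% lower past it with PF8503, and 0.0792% and 0.396% with PF846. With shares this small, nothing is read from the absence. Of 18 genes of magnesium transport, the process in which the CNNM partners act, 13 had a value with PF8503, with a median of 0.039, and 12 with PF846, with a median of -0.012. CNNM4 stood at 0.15 with PF8503 and 0.12 with PF846, CNNM3 at 0.019 and -0.079, CNNM2 at -0.12 and -0.065, and CNNM1 at 0.16 and -0.049. The ends of the list were NIPA2 (-0.20) and TRPM6 (0.23) with PF8503 and CNNM3 and TRPM6 (0.17) with PF846. NIPA2 is a magnesium transporter, and TRPM6 is a magnesium channel.

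In the list of prenylation and CAAX processing, which holds the enzymes that modify the C terminus of PTP4A proteins, 11 of 13 genes had a value. Their median was 0.029 with PF8503 and 0.014 with PF846. With PF8503 they ran from RABGGTB (-0.11), a subunit of the enzyme that prenylates Rab proteins, to ICMT (0.14), which methylates the prenylated cysteine. With PF846 they ran from GGPS1 (-0.15), which makes geranylgeranyl diphosphate, to PDE6D (0.084), a carrier of prenylated proteins.

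Of 21 reported PTP4A partners and downstream proteins, 19 had a value, with medians of 0.038 with PF8503 and -0.016 with PF846. At a mean of at least 100, the highest were FKBP8 (0.17), a chaperone of the mitochondrial surface, with PF8503 and CNNM4 with PF846.

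Other phosphatases of related fold were listed as well. Of 48 dual-specificity and related phosphatases, 30 had a value with PF8503 and 29 with PF846, with medians of 0.0048 and 0.0062. At a mean of at least 100 the highest with PF8503 was SSH3 (0.33), a cofilin phosphatase. With PF846 they ran from STYX (-0.28), a catalytically inactive member, to DUSP4 (0.18), a MAP kinase phosphatase. Of 35 classical tyrosine phosphatases, 17 had a value, with medians of 0.017 and -0.029. The lowest was PTPN9, at -0.34 with PF8503 and -0.19 with PF846, and the highest at this mean was the receptor phosphatase PTPRS, at 0.29 and 0.18.

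PTP4A1 belongs by its history to the immediate-early genes, and 41 other genes of this kind were listed. With PF8503, 25 of the 30 with a value had a mean above vehicle, beside 54.7% of all transcripts, with a median of 0.093. With PF846, 11 of 29 did, beside 50.3% of all transcripts, with a median of -0.023. With PF8503 they ran from TOB1 (-0.24), an antiproliferative factor, to IER5 (0.36), and with PF846 from ATF3 (-0.31), a stress-induced transcription factor, to GADD45A (0.16), a growth-arrest gene. None reached the ratio of PTP4A1 with the same compound. PTP4A1 was selected for its increase, and nothing is read from its place above them.

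**Figure D5:**
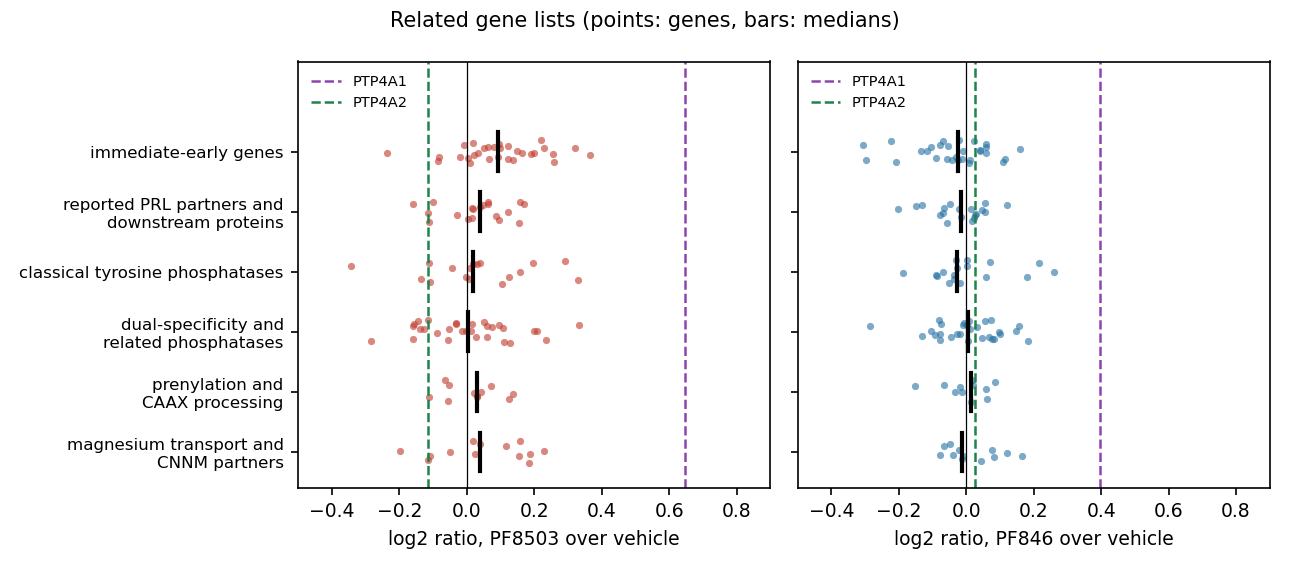
Log2 ratio over vehicle (x axis) of the genes of 6 lists (rows) with PF8503 (left) and PF846 (right). Points are genes, black bars are list medians, and dashed lines are the ratios of PTP4A1 (purple, 0.65 and 0.40) and PTP4A2 (green, -0.12 and 0.026). List medians run from 0.0048 to 0.093 on the left and from -0.029 to 0.014 on the right. PTP4A1 was selected for its increase, and nothing is read from every listed gene lying to the left of its line.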

How the data were processed

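Ribosome-protected fragments of Huh-7 cells were sequenced in 9 libraries, 3 per condition, grouped by their labels. The authors trimmed adapters (FASTX toolkit), discarded reads of ribosomal RNA and aligned the others with Bowtie to the canonical coding transcripts of UCSC on GRCh38 (GENCODE 24), keeping alignments with a single position. Reads were counted from codon 10, or 3′ of the position of largest cumulative difference where its Z score was at least 2, to the tenth codon before the end, and the authors passed transcripts with more than 30 counts to DESeq. Which start applied to the members was read only from the vehicle means, which show equal regions in both comparisons but would not show one shortened alike in both. Versions are not given in the sources used here.

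Of the columns that the authors deposited, the signal columns used here hold the mean, over the libraries of vehicle or of compound, of counts divided by DESeq size factors. The deposited fold changes, log2 fold changes and p-values, which hold the authors' own comparison, were not used. The ratios given here were formed from the authors' means of the same comparison, so they are not an independent estimate. No model was fitted, because the tables hold no value of a single library, and log2 ratios of the means are descriptions. Depth per library is unknown. The fold of 0.5, the lists and the members were chosen with earlier results of these data known.

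The genes named are the members, the list genes past the fold or otherwise the highest and lowest with a mean of at least 100 in both comparisons, the 5 transcripts nearest to PTP4A1, and its 2 neighbours in rank on each side. The CNNM genes, the transcripts above PTP4A1 and those at 0.3 or more with both compounds were named beyond this rule, after their values were seen, as were KISS1R and MT-ATP6. Results for 1 gene that the rule names are not reported here. Hepatocyte and other cell markers were also listed, and 1 of them, APOH, was past the fold, at -0.80 with PF8503.

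Coordinates and sequences come from the Ensembl canonical transcripts of GENCODE 44 on GRCh38, matched by symbol (94.5% of the PF8503 symbols had a coding length). The transcript may differ from the authors' UCSC one. Steps were tested on simulated data. Python 3.11.15, numpy 2.4.6, pandas 2.3.3, matplotlib 3.10.9 and biopython 1.88 were used. Alternatives were centring, scaling to totals with and without mitochondrially encoded transcripts, pseudocounts of 1 and 10, folds of 0.3 and 1, minimum means of 30 and 100, and transcripts in both comparisons.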

Additional observations from a re-analysis of the deposited data

How the results depend on the processing

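The ratios of PTP4A1 and PTP4A2 to vehicle kept their direction and their side of the fold under centring, both scalings and both pseudocounts. PTP4A1 ranged from 0.63 to 0.65 with PF8503 and from 0.39 to 0.40 with PF846. PTP4A2 ranged from -0.13 to -0.11 and from 0.025 to 0.027. A tally of all alternatives says little about robustness, because part of them could show no change. Levels per codon over unique windows equalled the reported levels, since every window was unique among coding transcripts. The lower minimum mean left every rank and count as it was. Counts, ranks and levels also have no direction that could reverse. Of 80 alternative values in all, 65 stayed within 0.1 of a reported log2 value or within 1.5 times a reported count, rank or level. Another 15 moved by more and 0 reversed. Within that tolerance, at a mean of at least 100 the median of the magnesium transport list with PF8503 was 0.097 in place of 0.039, and with PF846 the medians were -0.0010 in place of -0.016 (partners), -0.018 in place of -0.012 (magnesium transport), 0.0039 in place of 0.0062 (dual-specificity phosphatases) and 0.039 in place of 0.059 (other-cell markers).

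The values that moved were ranks and counts, each by the construction of the alternative. With PF8503 the rank of PTP4A1 was 3 at a mean of at least 100 and 1 among transcripts of like mean. With PF846 it was 13 at a mean of at least 100 and 3 among transcripts of like mean. Among transcripts with a known length of at most 200 codons it was 2. The rankings by like mean and by length were chosen after seeing the data. With PF8503, 194 transcripts were higher at a fold of 0.3, 1 at a fold of 1 and 6 at a mean of at least 100, and 273 and 23 were lower at folds of 0.3 and 1. With PF846, 78 were higher at 0.3, 0 at 1 and 4 at a mean of at least 100, and 99 and 11 were lower at folds of 0.3 and 1. At a fold of 0.3, PTP4A1 was past the fold with both compounds.

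No paired analysis was possible because the values are means over the libraries of a condition, and leaving out a replicate could not be run for the same reason. Low means limit the ranks, since the scatter of the ratios is wider there.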
